A study of Drosophila melanogaster with 64 samples.

Results

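Listericin, Def, DptA, DptB, Dro and Mtk are 6 genes that encode secreted antimicrobial peptides of Drosophila melanogaster. They were taken from the count table by their FlyBase identifiers, and all 6 were found among its 17752 genes. Antimicrobial peptides are short, mostly cationic peptides that kill or arrest microbes, largely by acting on their membranes. In flies a systemic infection switches their genes on in the fat body, and many epithelia that meet the outside, the reproductive tract among them, also make them. The Imd pathway, which senses the peptidoglycan of most Gram-negative bacteria and ends in the NF-kappaB factor Relish, is the main inducer of the diptericins DptA and DptB and of drosocin (Dro). The Toll pathway and its factors Dif and Dorsal act with Imd on the defensin Def and on metchnikowin (Mtk), and Listericin is known to respond to Imd together with JAK/STAT signalling. The diptericins and drosocin act mainly on Gram-negative bacteria, defensin on Gram-positive bacteria, and metchnikowin on fungi and Gram-positive bacteria.

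RNA-seq libraries were made from 6 dissected tissues of the lower female reproductive tract (FRT) of the wild-type strain LHM, aged 3 to 8 days. The tissues were the bursa, oviduct and seminal receptacle, which the study calls epithelial, the paired spermathecae and parovaria, which it calls glandular, and the fat body attached to the tract. Each was taken from unmated females and at 6 h and 24 h postmating, and the series of unmated, 6 h and 24 h libraries numbered 4, 4 and 4 for the bursa, 3, 2 and 3 for the oviduct, 3, 4 and 3 for the seminal receptacle, 4, 4 and 4 for the spermathecae, 4, 3 and 4 for the parovaria, and 4, 3 and 2 for the fat body. Another 2 libraries held unmated whole females without the lower FRT. Mated females had been housed with males and were kept only when sperm was visible in the seminal receptacle, so contact with males and receipt of the ejaculate cannot be told apart. There was no infected and no wounded group. Each library pooled the dissected tissue of many females, so a level is a mean over females, and fewer cells of a type and less RNA per cell cannot be told apart.

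Total counts ran between 12177864 and 26860149 per library (median 24545411.5), with 38 libraries in run 2 and 26 in run 1. Run here means the batch digit in the library name. The paper does not state whether the batches also differed in dissection or library preparation. Run 1 held no whole females, no fat body at 24 h and no oviduct at 6 h. Levels are given as CPM, counts scaled to the library's total. The labelled fat body was checked with 15 fat body genes. In unmated fat body 11 of them exceeded 2 CPM, and Fbp2 and Sdr were at 0. That count did not set the fat body apart, being 10 to 12 in the 5 other unmated tissues and 13 in whole females. The summed level was 48981 to 106951 CPM, against 6688 to 34521 CPM in the 5 other unmated tissues. The yolk protein genes supplied most of that sum. As a percent of the fat body mean, the 11 genes had medians of 13.6% to 37.1% in those tissues. Single genes reached 365% (seminal receptacle), 127% (parovaria), 206% (oviduct) and 143% (bursa), but at most 93.0% in the spermathecae. Gut transcripts summed to 7295 and 7300.0 CPM in the whole females and to 2.19 to 48.2 CPM in the tissues, apart from 1 unmated spermathecae library of run 1 at 433 CPM.

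All 6 genes are small and lie on chromosome arm 2R of the BDGP6.54 annotation. Listericin (FBgn0033593) is at 2R:11241745-11242194, Def (FBgn0010385) at 2R:10054178-10054576, Dro (FBgn0010388) at 2R:14745961-14746714 and Mtk (FBgn0014865) at 2R:15408846-15409113. DptA (FBgn0004240), at 2R:18865765-18866260, and DptB (FBgn0034407), at 2R:18867391-18867895, are neighbours on the same strand with 1130 bases between them. Exonic lengths were 450, 399, 496, 449, 754 and 268 bases for Listericin, Def, DptA, DptB, Dro and Mtk, and 5 of the 6 genes have a single exon. Def lies inside magu and Mtk inside an intron of Stacl, and neither shares an exonic base with its host. DptB shares 48 exonic bases with the antisense gene CG43109, which held 2794 counts over all libraries, against 331272 for DptB.

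**Figure D1:**
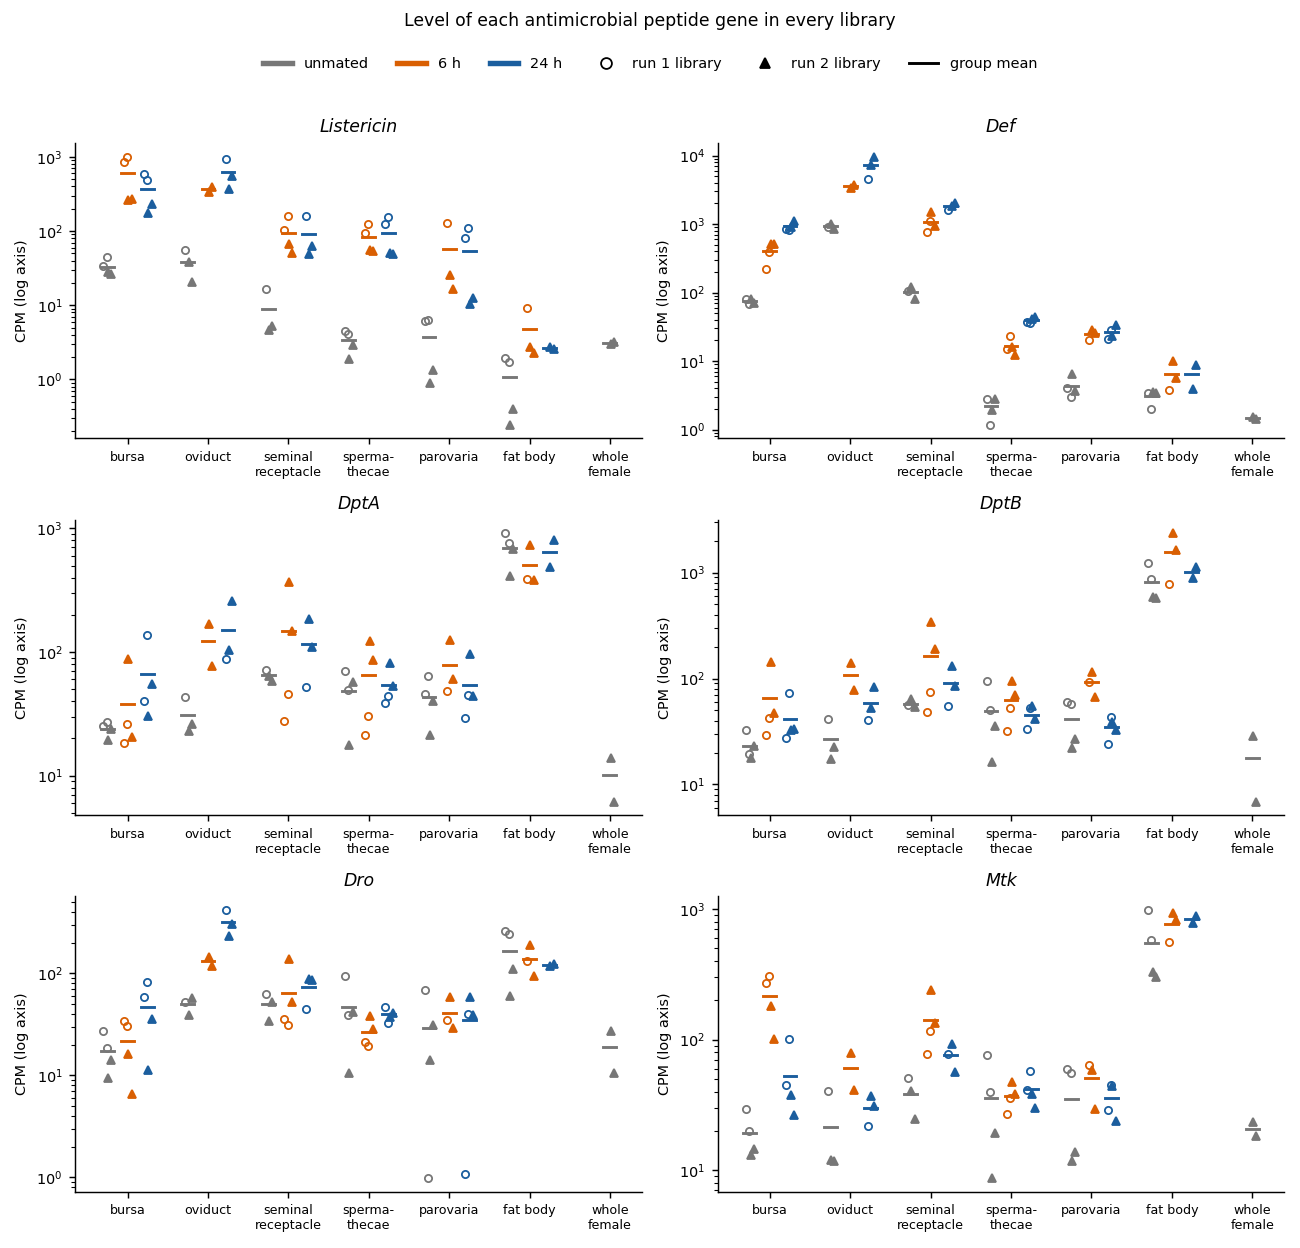
CPM (log axis) of each of the 6 genes in every library, by tissue and time postmating, with open circles for run 1, filled triangles for run 2 and a bar for the group mean. Def and Listericin stand highest in the oviduct or bursa and their mated libraries lie above the unmated ones in every tissue on this scale, while DptA, DptB and Mtk stand highest in the fat body.

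Before mating the 6 genes fell into distinct tissue patterns. The question here was where each gene is expressed in the unmated tract, tested as each tissue against the mean log level of the other 5 tissues. DptA, DptB, Mtk and Dro were higher in the fat body, and Def was higher in the oviduct and seminal receptacle. Of 36 gene-by-tissue pairs 11 passed a Bonferroni-adjusted p of 0.01 in edgeR's quasi-likelihood test, 6 of them higher and 5 lower. Over all 8545 genes tested the same rule called 52.9% in the fat body, 16% in the spermathecae, 15% in the parovaria, 11.9% in the seminal receptacle, 14.7% in the oviduct and 21.4% in the bursa. The share of the members, 4 higher and 1 lower of 6 in the fat body, therefore stood against a background in which most genes were called. With total counts in place of TMM (trimmed mean of M values, the scaling by which edgeR equalises libraries) 9 pairs passed (23.8% of all tests over the 6 tissues), 6 higher and 3 lower, Def in the bursa being added and Dro in the fat body and DptA in the bursa and oviduct being lost. With the run as a covariate 16 pairs passed, against 24.3% of all tests. In run 2 alone 7 passed, against 9.48%, namely DptA, DptB and Mtk in the fat body, Def in the oviduct and spermathecae, and Listericin in the oviduct and bursa.

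DptA had 912, 756, 412 and 681 CPM in the unmated fat body, the first 2 libraries being of run 1. In the 5 other unmated tissues its group means ran between 24.0 and 64.6 CPM, and no library of theirs reached a fat body library. The fat body exceeded the other tissues by 5.64 ± 0.19 in log2 (SE; edgeR, Bonferroni-adjusted p = 8.15e-14). Against the mean log level of the other 5 tissues, the fat body included, DptA was lower in the bursa, at 24.0 ± 3.36 CPM (SD, n = 4; log2 difference −2.18 ± 0.26; edgeR, adjusted p = 0.000656). It was also lower in the oviduct, at 30.7 ± 10.8 CPM (n = 3; −2.06 ± 0.30; edgeR, adjusted p = 0.00921). Bursa and oviduct libraries overlapped each other, and whole females were below the bursa without overlap, at 10.1 ± 5.53 CPM (n = 2). When single libraries were left out, the oviduct call was kept in 2 of 22 fits and the bursa call in 20 of 22, being lost without either run 2 bursa library (edgeR, adjusted p = 0.0106 and 0.0112).

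DptB had the same order of tissues as DptA. It held 1241, 863, 581 and 577 CPM in the unmated fat body, with a log2 difference from the other tissues of 5.97 ± 0.24 (edgeR, Bonferroni-adjusted p = 2.77e-12). Its remaining group means were between 23.3 CPM in the bursa and 57.6 CPM in the seminal receptacle, and neighbours in that order overlapped. Mtk had 986, 579.6, 329 and 301 CPM in the unmated fat body (5.76 ± 0.37; edgeR, adjusted p = 1.05e-08) and means of 19.3 to 38.6 CPM in the other tissues, whose order was likewise within the spread of the libraries. Dro differed least between tissues. Its fat body libraries were at 258, 242, 60.0 and 110.0 CPM, the log2 difference was 3.67 ± 0.46 (edgeR, adjusted p = 0.00116; kept in 20 of 22 fits with 1 library left out), and by total counts the fat body overlapped the next tissue in order, the seminal receptacle at 49.9 ± 14.7 CPM (n = 3). With TMM-scaled CPM the fat body, at 166.7 to 460.2 CPM, stood apart from the next tissue, the spermathecae at 10.5 to 86.0 CPM.

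Def was highest in the oviduct. The unmated oviduct held 915, 1000.3 and 859 CPM, and no other group came near it. The seminal receptacle followed with 106, 119 and 80.5 CPM and the bursa with 67.5 to 81.1 CPM, and these overlapped each other. The parovaria (4.30 ± 1.53 CPM, n = 4), fat body (3.07 ± 0.71 CPM, n = 4) and spermathecae (2.19 ± 0.79 CPM, n = 4) lay far below, each overlapping the next in this order. With CPM scaled by TMM over all 64 libraries the fat body stood above the parovaria, at 6.77 against 5.36 CPM, again with overlap. Against the other 5 tissues the log2 difference was 5.49 ± 0.21 in the oviduct (edgeR, Bonferroni-adjusted p = 7.48e-13) and 1.82 ± 0.23 in the seminal receptacle (edgeR, adjusted p = 0.00168). It was −4.20 ± 0.33 in the spermathecae (edgeR, adjusted p = 5.47e-07), −2.54 ± 0.30 in the parovaria (edgeR, adjusted p = 0.000355) and −2.0 ± 0.29 in the fat body (edgeR, adjusted p = 0.0093; kept in 4 of 22 fits with 1 library left out). In the bursa the difference of 1.43 ± 0.22 did not pass (edgeR, adjusted p = 0.0206).

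Listericin was low before mating. It had 55.4, 37.9 and 20.5 CPM in the oviduct and 34.2, 44.2, 27.8 and 26.4 CPM in the bursa, which overlapped each other and lay above every library of the other unmated groups. The seminal receptacle was at 8.81 ± 6.73 CPM (n = 3) and the spermathecae, parovaria and fat body at means of 1.08 to 3.72 CPM. Neither the bursa (2.17 ± 0.34; edgeR, Bonferroni-adjusted p = 0.0282) nor the oviduct (2.08 ± 0.37; edgeR, adjusted p = 0.153) passed against the other 5 tissues. With the run as a covariate both passed, the bursa at 2.27 ± 0.20 (edgeR, adjusted p = 6.03e-06) and the oviduct at 2.34 ± 0.22 (edgeR, adjusted p = 1.76e-05), and both also passed in run 2 alone.

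Expressed as a share of the fat body's own mean level, DptA, DptB and Mtk in the 5 other unmated tissues were at 3.48% to 9.36%, 2.86% to 7.07% and 3.51% to 7.04%. The 11 fat body genes above 2 CPM had medians of 24.3% in the spermathecae, 34.1% in the parovaria, 37.1% in the seminal receptacle, 26.9% in the oviduct and 13.6% in the bursa. Dro was at 10.4% to 29.8%. Listericin ran from 312% to 3511% and Def from 71.3% in the spermathecae to 30126% in the oviduct. These shares depend on the scaling between tissues. With TMM-scaled CPM, computed after the values were seen, Listericin ran from 160% to 1224% and Def from 31.3% in the spermathecae to 8966% in the oviduct, with Def in the parovaria at 79.2%. DptA, DptB and Mtk then stood at 1.27% to 3.50%, 1.05% to 2.87% and 1.25% to 3.56%, Dro at 3.95% to 13.5%, and the medians of the 11 fat body genes at 4.87% to 19.5%. How much of the DptA, DptB, Mtk and Dro signal in the tract came from attached fat body was not tested.

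**Figure D2:**
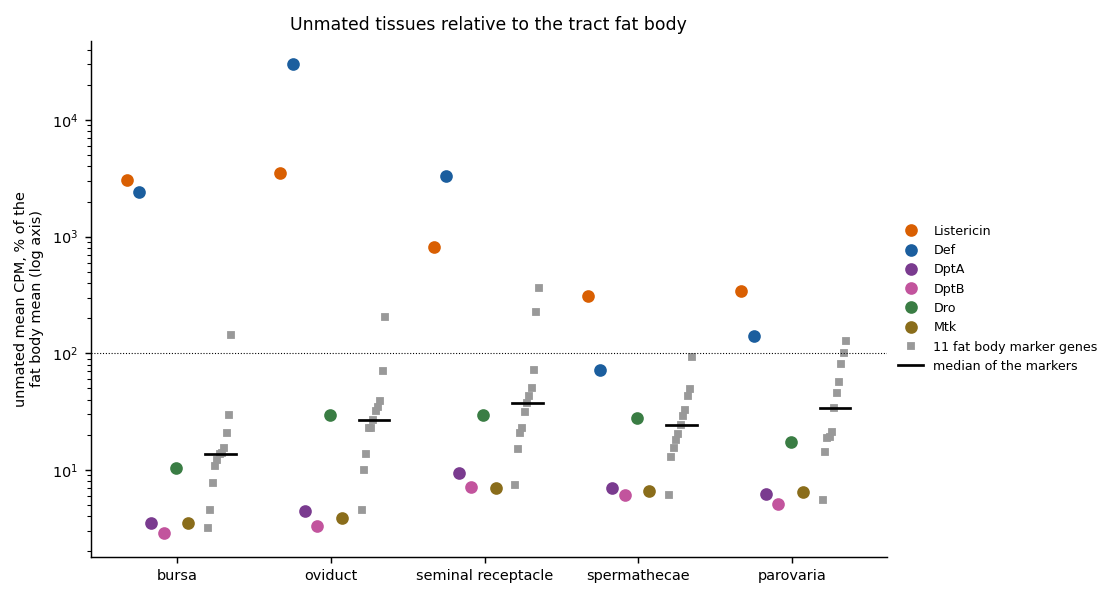
Mean CPM in 5 unmated tissues as a percent of the gene's mean in the unmated fat body (log axis, dotted line at 100%), for the 6 genes and for 11 fat body marker genes with their median as a bar. DptA, DptB and Mtk lie below the marker median in every tissue, at 2.86% to 9.36%, and Def reaches 30126% in the oviduct, all by total counts.

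The whole females, which lack the lower FRT but keep the rest of the body, ovaries included, allowed each tissue to be set against the body. No fat body from elsewhere in the body was sampled, so a fat body call does not show bias toward the tract. Of 36 pairs, 3 passed the study's limits, an adjusted p (Bonferroni) up to 0.001 combined with a difference of 2 or more log2 units. All 3 were higher in the dissected tissue, and the share of all genes called in either direction was 3.86% in the fat body, 1.1% in the spermathecae, 1.69% in the parovaria, 0.201% in the seminal receptacle, 0% in the oviduct and 2.34% in the bursa. Def was at 67.5 to 81.1 CPM in the unmated bursa, against 1.51 and 1.42 CPM in whole females (log2 fold change 6.62 ± 0.31; edgeR, adjusted p = 0.000427). DptA averaged 690.4 ± 209 CPM in the tract fat body (n = 4), against 14.0 and 6.16 CPM in whole females (8.79 ± 0.50; edgeR, adjusted p = 7.6e-05). Mtk averaged 549 ± 318 CPM there (n = 4), against 23.5 and 18.2 CPM in whole females (7.33 ± 0.54; edgeR, adjusted p = 0.000892). Def in the oviduct (9.95 ± 0.30; edgeR, adjusted p = 0.00129) and the seminal receptacle (6.89 ± 0.43; edgeR, adjusted p = 0.0075), and DptB (8.26 ± 0.67; edgeR, adjusted p = 0.00242) and Dro (5.76 ± 0.58; edgeR, adjusted p = 0.0164) in the fat body, stayed outside the limits. With 2 whole female libraries these calls were fragile. The Def call was lost whichever of 6 libraries was left out (edgeR, adjusted p = 0.00139 to 0.0154), and the DptA and Mtk calls were lost without either whole female library. TMM scaling also raised these fold changes over total counts, by a median over the members of 2.66 for the fat body and 0.99 for the bursa, and with total counts only the Def call in the bursa passed, against 1.56% of all tests over the 6 tissues. In run 2 alone 4 pairs passed, against 1.67%, DptA, DptB, Dro and Mtk in the fat body.

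The next question was which of the 6 genes respond to mating, and when. Every mated library of Listericin and Def lay above every unmated library of the same tissue, in all 6 tissues at both times when scaled by total counts, and Mtk rose in the bursa at 6 h. With TMM-scaled CPM 1 of these 24 comparisons overlapped, Def in the fat body at 6 h. At 6 h, 3 of 36 gene-by-tissue pairs were called higher than unmated at a Bonferroni-adjusted p of 0.01 (edgeR quasi-likelihood test): Listericin in the bursa and spermathecae, and Mtk in the bursa. At 24 h, 3 of 36 were called higher: Listericin in the same 2 tissues and Def in the spermathecae. None was called lower at either time. The share of all genes called higher at 6 h was 0.0176% in the fat body, 0.157% in the spermathecae, 0.0687% in the parovaria, 0.0246% in the seminal receptacle, 0.0256% in the oviduct and 1.03% in the bursa. At 24 h it was 0%, 0.0525%, 0.0137%, 0%, 0% and 0.125% in the same order of tissues. At an unadjusted p under 0.05, 21 and 19 of 36 were higher at 6 h and 24 h, where 10.1% and 4.35% of all tests over the 6 tissues were higher. edgeR's likelihood ratio test called 12 pairs at 6 h and 11 at 24 h, against 1.28% and 0.258% of all tests, and DESeq2 called 12 and 13, against 1.79% and 0.337%. These 2 comparisons share the unmated libraries. All 36 pairs passed the filter of more than 2 CPM in 2 libraries of a group, Listericin in the fat body only through its mated groups.

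**Figure D3:**
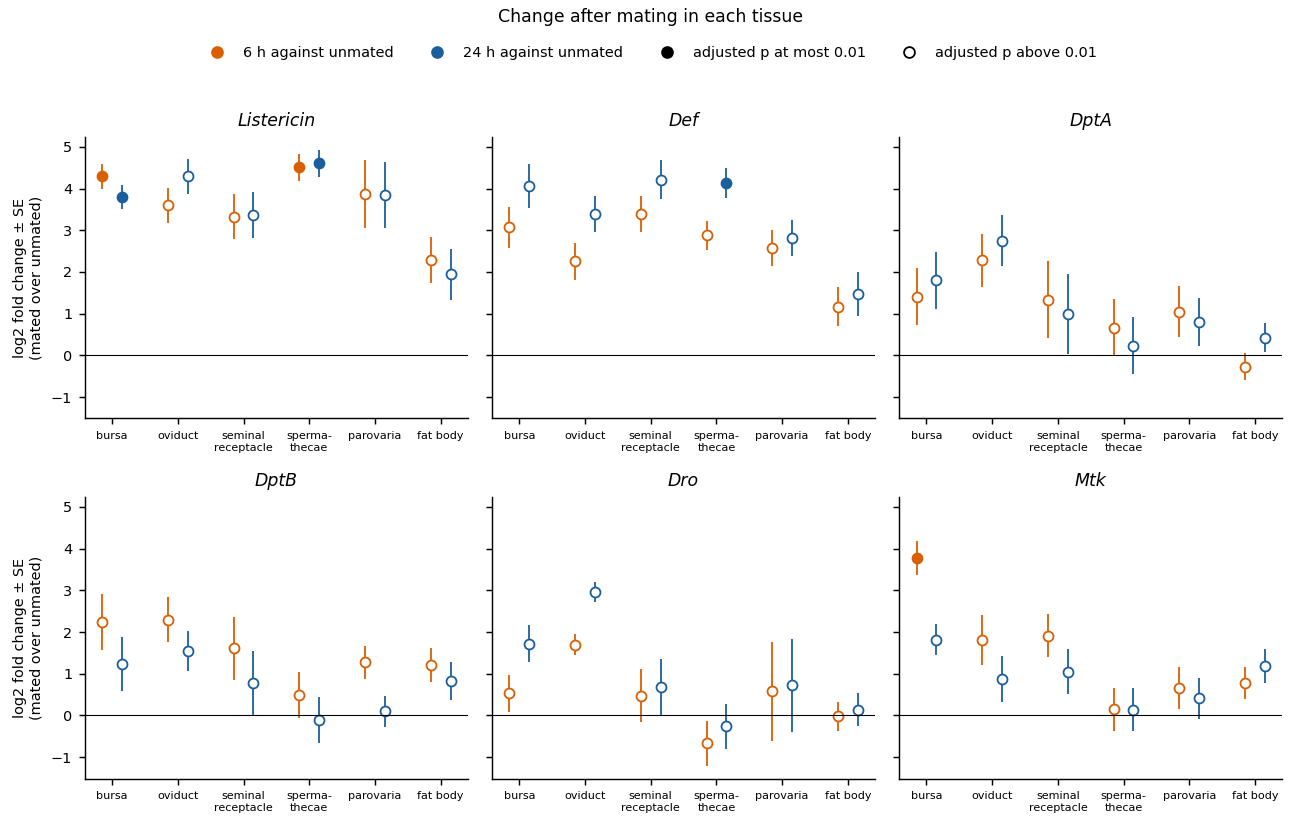
log2 fold change ± SE (edgeR, TMM) of each gene at 6 h and 24 h against unmated in the 6 tissues, with filled points for a Bonferroni-adjusted p of at most 0.01. Listericin and Def are above 0 in every tissue, with Listericin at 4.51 and 4.61 in the spermathecae, and Mtk stands at 3.77 in the bursa at 6 h.

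In the spermathecae Listericin had the highest fold change of the 6 genes at both times. There 4.54, 4.12, 1.88 and 2.96 CPM in unmated females preceded 94.5, 126, 55.7 and 53.5 CPM at 6 h and 124, 156, 50.8 and 49.4 CPM at 24 h. The log2 fold change was 4.51 ± 0.32 at 6 h (edgeR, Bonferroni-adjusted p = 4e-05) and 4.61 ± 0.32 at 24 h (edgeR, adjusted p = 3.26e-05). In the bursa the libraries held 34.2, 44.2, 27.8 and 26.4 CPM before mating, 863, 1009.8, 261 and 274 CPM at 6 h, and 590.3, 495, 177 and 235 CPM at 24 h. The fold change was 4.30 ± 0.30 at 6 h (edgeR, adjusted p = 5.8e-05) and 3.80 ± 0.30 at 24 h (edgeR, adjusted p = 0.000179). All 4 calls held in every one of 12 fits that left out a library. With total counts in place of TMM the bursa calls were lost and the spermathecae calls kept, and in run 2 alone, with 2 libraries per group, the bursa calls were kept and the spermathecae calls lost.

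Mated and unmated libraries of Listericin did not overlap in any of the 6 tissues at either time, although 8 of the 12 pairs missed the threshold. The paper names Listericin and Def among genes it found significantly raised in every tissue at 6 h. Of those pairs the quasi-likelihood test here called only Listericin in the bursa and spermathecae. edgeR's likelihood ratio test called both genes at 6 h in every tissue but the fat body. The oviduct held 55.4, 37.9 and 20.5 CPM before mating, 335 and 394 CPM at 6 h (3.60 ± 0.42; edgeR, Bonferroni-adjusted p = 0.264) and 933, 365 and 552 CPM at 24 h (4.30 ± 0.42; edgeR, adjusted p = 0.0683). The seminal receptacle held 16.6, 4.66 and 5.20 CPM before mating, 51.1 to 161 CPM at 6 h (3.33 ± 0.53; edgeR, adjusted p = 0.744) and 49.0 to 162 CPM at 24 h (3.36 ± 0.55; edgeR, adjusted p = 0.854). The parovaria held 0.897 to 6.42 CPM before mating, 16.8 to 130.2 CPM at 6 h (3.87 ± 0.82; edgeR, adjusted p = 1) and 10.5 to 109 CPM at 24 h (3.84 ± 0.79; edgeR, adjusted p = 1). In the fat body, where the gene was barely detected, unmated libraries were at 0.243 to 1.97 CPM, the 6 h ones at 2.28 to 9.16 CPM (2.29 ± 0.56; edgeR, adjusted p = 1) and the 24 h ones at 2.72 and 2.61 CPM (1.94 ± 0.61; edgeR, adjusted p = 1). Ranked by fold change at 6 h, Listericin was number 21 of 7983 genes tested in the bursa, 9 of 7277 in the parovaria, 24 of 5677 in the fat body, 10 of 7624 in the spermathecae, 19 of 7814 in the oviduct and 15 of 8141 in the seminal receptacle. No 24 h library group of Listericin lay apart from its 6 h group.

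The run moved with Listericin. Run 1 libraries exceeded run 2 libraries in 16 of the 16 groups that held both, by 1.45 to 8.28 times. Within run 1 the 6 h mean was 4.98 to 25.5 times the unmated mean over 5 tissues, and within run 2 it was 7.76 to 22.6 times over 6 tissues. With the run as a covariate the number of calls over the 6 genes was 8 at 6 h and 9 at 24 h, against 0.463% and 0.0741% of all tests. Of these Listericin supplied 5 and 5, in the bursa, seminal receptacle, spermathecae, parovaria and fat body at each time, and in the fat body it passed the filter on low values only through its mated groups. In the bursa the summed level of 18 genes typical of male accessory gland and ejaculate ran alongside, at 3329 and 3779 CPM in run 1 and 1037 and 1081 CPM in run 2 at 6 h, against 763, 731, 923 and 990.1 CPM unmated. Of these genes 3 were above 2 CPM (Acp62F, Est-6 and PebIII), while SP, Acp26Aa and Acp36DE, which mark the accessory gland, were at 0 in every bursa library. Muscle transcripts were looked at too. They were higher in more tests at 24 h than at 6 h, and their level is not given by run. Over all genes and the 6 tissues, 10.1% of tests were higher at 6 h and 4.35% at 24 h at an unadjusted p under 0.05. The share higher at 24 h than at 6 h was not computed. Of 81 gene-by-tissue tests of 14 muscle genes, 11 were higher and 3 lower at 6 h and 44 higher and 0 lower at 24 h, at an unadjusted p under 0.05, and 30 were higher and 0 lower at 24 h than at 6 h. Their summed level in the unmated, 6 h and 24 h libraries was 1048 to 1568, 1223 to 2450 and 2021 to 3699 CPM in the spermathecae, and 15809 to 22110, 19931 to 39806 and 28515 to 32380 CPM in the seminal receptacle. In the oviduct it was 24108 to 32001, 20738 to 25625 and 28930 to 49874 CPM, and in the bursa 27621 to 49461, 18987 to 50686 and 35851 to 57154 CPM. The part of ejaculate genes and of muscle in the Listericin and Def levels was not tested.

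Def, which encodes the defensin, was likewise above its unmated level in every mated library of all 6 tissues, and in 4 tissues every 24 h library also exceeded every 6 h library by total counts. With TMM-scaled CPM 24 h and 6 h libraries stood apart in the oviduct and spermathecae alone. In the spermathecae the unmated libraries held 2.83, 1.17, 1.96 and 2.79 CPM, the 6 h libraries 14.9, 22.9, 16.1 and 12.4 CPM and the 24 h libraries 37.4, 35.5, 40.6 and 43.9 CPM. The log2 fold change was 2.88 ± 0.35 at 6 h (edgeR, Bonferroni-adjusted p = 0.0159) and 4.13 ± 0.36 at 24 h (edgeR, adjusted p = 0.00049), and the 24 h call held in 12 of 12 fits with a library left out but not in run 2 alone. The highest levels were again in the oviduct, with 915, 1000.3 and 859 CPM before mating, 3405 and 3676 CPM at 6 h (2.25 ± 0.44; edgeR, adjusted p = 1) and 4581, 7365 and 9659.9 CPM at 24 h (3.38 ± 0.43; edgeR, adjusted p = 0.461). The libraries of the 3 times did not overlap, but the fitted differences missed the threshold, and no gene at all was called higher in the oviduct at 24 h.

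The bursa held 79.9, 67.5, 81.1 and 69.6 CPM of Def before mating, 224, 394, 506 and 509 CPM at 6 h (3.07 ± 0.50; edgeR, Bonferroni-adjusted p = 0.39) and 835, 832, 913 and 1109.5 CPM at 24 h (4.06 ± 0.52; edgeR, adjusted p = 0.0388). The seminal receptacle held 80.5 to 119 CPM before mating, 768 to 1520.3 CPM at 6 h (3.38 ± 0.43; edgeR, adjusted p = 0.108) and 1600.0 to 2023 CPM at 24 h (4.22 ± 0.46; edgeR, adjusted p = 0.0266). In these 2 tissues, as in the oviduct and the spermathecae, the 24 h libraries lay above all 6 h libraries. The parovaria held 2.95 to 6.49 CPM before mating, 20.5 to 28.1 CPM at 6 h (2.58 ± 0.44; edgeR, adjusted p = 0.619) and 20.9 to 33 CPM at 24 h (2.82 ± 0.42; edgeR, adjusted p = 0.212), with the mated times overlapping. With the run as a covariate Def passed there at 6 h (2.41 ± 0.23; edgeR, adjusted p = 0.00639) and at 24 h (2.80 ± 0.22; edgeR, adjusted p = 0.00104), as it did in the spermathecae at both times and in the bursa and seminal receptacle at 24 h. The fat body held 2.01 to 3.53 CPM before mating, 3.73 to 9.94 CPM at 6 h (1.17 ± 0.47; edgeR, adjusted p = 1) and 3.94 and 8.90 CPM at 24 h (1.47 ± 0.52; edgeR, adjusted p = 1). Unlike Listericin, Def was higher in run 1 in only 2 of 16 groups. Its 6 h mean was 1.39 to 9.46 times the unmated mean within run 1 and 2.25 to 12.3 times within run 2. With total counts Def was called in the bursa, seminal receptacle and spermathecae at 6 h, and in those tissues and the parovaria at 24 h, where the shares of all tests called higher were 0.0921% and 0.0247%. In run 2 alone it was called in the bursa at 6 h (3.68 ± 0.29; edgeR, adjusted p = 0.00998) and at 24 h (4.35 ± 0.29; edgeR, adjusted p = 0.0035), where those shares were 0.0811% and 0.0119%.

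Mtk, the metchnikowin gene, was called in the bursa at 6 h. The bursa libraries held 29.5, 19.9, 13.1 and 14.6 CPM before mating, 272, 309.7, 182 and 101 CPM at 6 h and 44.9, 101, 37.4 and 26.4 CPM at 24 h, the first 2 of each time being of run 1. The 6 h libraries stood apart from the unmated ones. Over both runs the 24 h libraries overlapped both, but within each run, with 2 libraries per time, they lay above the unmated and below the 6 h libraries. The log2 fold change was 3.77 ± 0.41 at 6 h (edgeR, Bonferroni-adjusted p = 0.00622) and 1.82 ± 0.38 at 24 h (edgeR, adjusted p = 1), and the 24 h level differed from the 6 h level by −1.95 ± 0.38 (edgeR, adjusted p = 1). The 6 h call was near the threshold: it was kept in 2 of 12 fits with a library left out, the adjusted p in edgeR being 0.0105 to 0.0604 in the other 10, and it was lost with total counts and in run 2 alone. The ratio of means was 11.8 within run 1 and 10.2 within run 2. In the oviduct Mtk was at 40.2, 11.9 and 11.9 CPM before mating and 79.4 and 41.0 CPM at 6 h (1.80 ± 0.60; edgeR, adjusted p = 1), and in the seminal receptacle at 24.7 to 50.7 CPM before mating and 77.3 to 241 CPM at 6 h (1.92 ± 0.53; edgeR, adjusted p = 1). In both tissues the 6 h libraries lay above all the unmated ones. Spermathecae, parovaria and fat body overlapped between 6 h and unmated. Mtk in the bursa was 11.2 times higher in the mean at 6 h than unmated. The summed fat body genes there were 3314 to 11364 CPM at 6 h, against 6688 to 10670.5 CPM unmated. The part of fat body in the Mtk level was not tested.

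No pair was called lower at 24 h than at 6 h (0 of 36, edgeR quasi-likelihood test, where 2 reached an unadjusted p under 0.05, against 8.32% of all tests lower at that limit). edgeR's likelihood ratio test and DESeq2 called 1 pair each, Mtk in the bursa, against 0.755% and 1.07% of all tests over the 6 tissues. The share of all genes called lower was 0% in the fat body, 0.0918% in the spermathecae, 0.0275% in the parovaria, 0% in the seminal receptacle, 0.0128% in the oviduct and 0.601% in the bursa.

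Counted by overlap alone, 19 of 36 pairs had every 6 h library above every unmated one, 17 overlapped and none lay below. At 24 h these counts were 16, 20 and none. Of all tests over the 6 tissues 7.87% lay above without overlap at 6 h and 2.59% at 24 h. With TMM-scaled CPM the members' counts were 18 and 20. Listericin and Def supplied 12 of the 19 and 12 of the 16. Of the others, DptA stood apart in the oviduct at 6 h and in the bursa and oviduct at 24 h, DptB in the oviduct and parovaria at 6 h, Dro in the oviduct at both times, and Mtk in the seminal receptacle at 24 h besides the 3 tissues at 6 h. Between 6 h and 24 h, 5 pairs were higher and 2 lower at 24 h without overlap, the lower ones being DptB in the parovaria and Mtk in the oviduct, where 4.53% of all tests were higher and 9.99% lower. With TMM-scaled CPM 3 pairs were higher and 3 lower, Mtk in the bursa being added to the lower ones.

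DptA and DptB, the neighbouring diptericins, passed the threshold in no tissue at either time. In the oviduct DptA was at 43.0, 23.1 and 26.0 CPM before mating, 168 and 76.8 CPM at 6 h (2.28 ± 0.64; edgeR, Bonferroni-adjusted p = 1) and 87.5, 104 and 258 CPM at 24 h (2.75 ± 0.61; edgeR, adjusted p = 1). DptB there was at 41.3, 17.5 and 22.4 CPM before mating and 139 and 77.3 CPM at 6 h (2.30 ± 0.53; edgeR, adjusted p = 1). In the seminal receptacle DptB was at 53.7 to 63.5 CPM before mating and 48.3, 75.4, 344 and 189 CPM at 6 h (1.61 ± 0.76; edgeR, adjusted p = 1), and in the fat body at 577 to 1241 CPM before mating and 773, 2347 and 1614 CPM at 6 h (1.21 ± 0.41; edgeR, adjusted p = 1). In both tissues the groups overlapped and the 2 run 2 libraries were the high ones at 6 h. In the bursa DptB was at 33, 19.5, 17.7 and 23.1 CPM before mating and 29.6, 42.0, 142 and 46.9 CPM at 6 h (2.24 ± 0.67; edgeR, adjusted p = 1), with overlap.

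The direction of the diptericin values at 6 h differed between the runs. Within run 1 the 6 h mean of DptA was below the unmated mean in 5 of 5 tissues, at 0.435 to 0.886 times, and within run 2 it was above in 6 of 6, at 1.02 to 4.98 times. DptB was above in 3 of 5 tissues in run 1 (0.584 to 1.59 times) and in 6 of 6 in run 2 (3.16 to 5.43 times), Dro in 1 of 5 and 5 of 6, and Mtk in 3 of 5 and 6 of 6. Fat body genes also varied between single libraries of a group. The third 6 h bursa library, of run 2, had 11364 CPM of summed fat body genes, against 3314 to 5199 CPM in the other 3, and held the 87.3 CPM of DptA and 142 CPM of DptB. The third 6 h seminal receptacle library, also of run 2, had 47399 CPM, against 9884 to 22885 CPM, and held 370.2 CPM of DptA and 344 CPM of DptB. Over the 15 groups of the 5 tissues other than the fat body, the library with the most fat body transcript was also the highest in DptA in 10, in DptB in 11, in Mtk in 10, in Dro in 7, in Listericin in 5 and in Def in 5. Over 8694 genes of these tissues, the fat body markers left out, the median was 4 groups, 44.7% of genes reached 5, 18.4% reached 7, 3.58% reached 10 and 2.24% reached 11.

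Set against 1000 CPM of summed fat body genes in the same library, a ratio chosen after the values were seen, DptB at 6 h was above unmated without overlap in 5 of 5 tissues, by 2.21 to 3.90 times in the mean. Mtk was above in 5 of 5, by 1.95 to 19.9 times, and DptA in 3 of 5, by 2.08 to 3.72 times. Listericin and Def were above in 5 of 5 at both times, and Dro in 1 of 5 at both. At 24 h DptA was above in 2, DptB in 3 and Mtk in 2 of the 5. These ratios carry no test across genes, no share over all genes was computed for them, and the fat body sum itself differed between groups. Fat body markers at 6 h were lower in 13 of 66 tests and higher in 2, at an unadjusted p under 0.05. A lower sum by itself raises the ratio of any gene. By total counts DptB at 6 h stood apart in 2 of 6 tissues.

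Within a library the count of DptA over that of DptB cancels depth, scaling and any factor the neighbours share. It was not among the planned comparisons, the tissues share the same runs, and no share over other gene pairs is given. In unmated libraries this ratio averaged 0.875 in the fat body, 1.09 in the spermathecae, 1.08 in the parovaria, 1.13 in the seminal receptacle, 1.17 in the oviduct, 1.08 in the bursa and 0.693 in whole females. At 6 h it averaged 0.351, 0.938, 0.834, 0.758, 1.10 and 0.576 in the 6 tissues in that order, below the unmated mean in 6 of 6, and at 24 h 0.630, 1.19, 1.51, 1.22, 2.41 and 1.48, above the 6 h mean in 6 of 6. In the bursa the 6 h libraries (0.440 to 0.6247) lay below all unmated (0.766 to 1.41) and all 24 h libraries (0.931 to 1.87). Both bursa comparisons gave p = 0.02857 in a two-sided exact permutation test, the smallest value that 4 against 4 allows, and 0.2571 after Benjamini-Hochberg adjustment over the 18 comparisons made. The fat body at 6 h also lay below its unmated libraries without overlap (exact permutation p = 0.05714, the smallest possible with 3 and 4). After adjustment no comparison of the ratio passed 0.05.

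**Figure D4:**
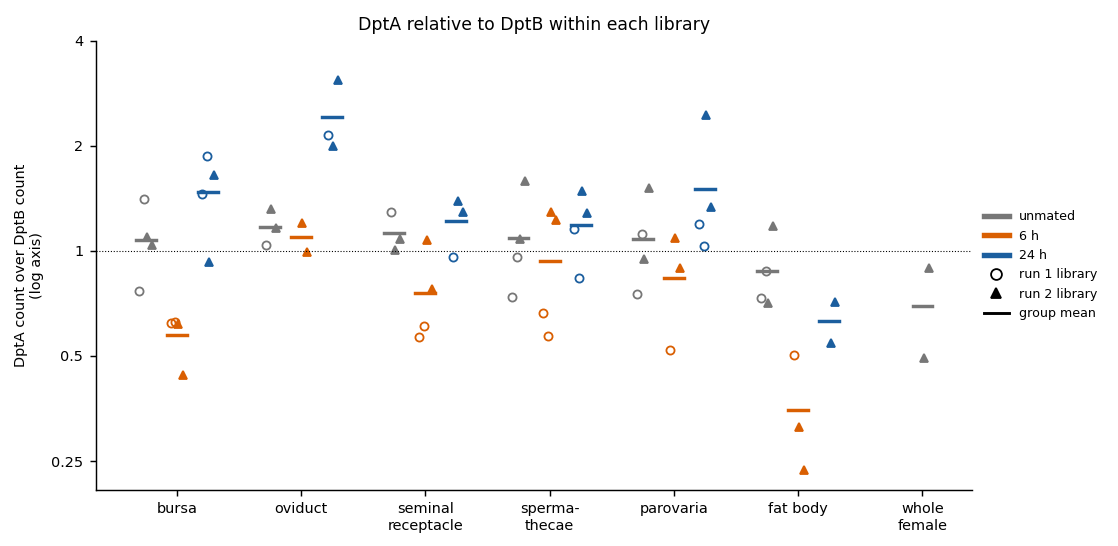
DptA count over DptB count in each library (log axis, dotted line at 1) by tissue and time, with open circles for run 1, triangles for run 2 and a bar for the group mean. The 6 h mean is below the unmated and 24 h means in every tissue, and the 6 h bursa libraries sit between 0.440 and 0.6247.

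Dro, which encodes the proline-rich peptide drosocin, stood out in the oviduct. The libraries there held 52.8, 39.5 and 57.0 CPM before mating, 144 and 118 CPM at 6 h and 419, 233 and 304 CPM at 24 h, with no overlap between any of the times. The log2 fold change was 1.70 ± 0.25 at 6 h (edgeR, Bonferroni-adjusted p = 1) and 2.97 ± 0.24 at 24 h (edgeR, adjusted p = 0.0183). In the other 5 tissues Dro overlapped between mated and unmated libraries. At 24 h the oviduct was at 319 ± 93.9 CPM (n = 3) and the fat body libraries at 117 and 122 CPM, an order that turned with TMM-scaled CPM, to 254 ± 49.2 CPM in the oviduct (n = 3) and 318 and 345 CPM in the fat body. In the parovaria 2 libraries, both of run 1, had almost no Dro: 0.983 CPM in 1 unmated library and 1.08 CPM in 1 library at 24 h, or 26 and 29 counts, with the remaining parovaria libraries at 14.2 to 69.1 CPM. The same 2 libraries held 64.2 and 29.2 CPM of DptA, 57.4 and 24.3 CPM of DptB and 55.1 and 28.7 CPM of Mtk. The fold change of Dro in the parovaria at 6 h was 0.58 ± 1.18 with them (edgeR, adjusted p = 1) and 0.20 without them.

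Whether a response was particular to a tissue was tested directly, as the change in a tissue minus the mean change in the other 5. At 6 h no member passed in any tissue (0 of 36, edgeR quasi-likelihood test, with 4 at an unadjusted p under 0.05, against 11.7% of all tests), where the share of all 8793 genes called was 0.591% for the fat body, 0.171% for the spermathecae, 0.0114% for the parovaria, 0.0341% for the seminal receptacle, 0.0114% for the oviduct and 0.569% for the bursa. At 24 h again none passed (0 of 36, edgeR, with 4 at an unadjusted p under 0.05, against 6.28% of all tests), with background shares of 0.182%, 0.0114%, 0.0114%, 0%, 0% and 0.0341% in the same order of tissues. The 24 h response of Def in the fat body differed from that in the other tissues by −2.29 ± 0.61 in log2 (edgeR, Bonferroni-adjusted p = 1). It passed with total counts (−2.44 ± 0.41; edgeR, adjusted p = 0.00301), with the run as a covariate (−2.56 ± 0.44; edgeR, adjusted p = 0.00436) and in run 2 alone (−2.89 ± 0.39; edgeR, adjusted p = 0.00162), where the shares of all genes called were 0.0682%, 0.239% and 0.106%. The response of Mtk in the bursa at 6 h exceeded that of the other tissues by 2.66 ± 0.57 in log2 (edgeR, Bonferroni-adjusted p = 0.246). The response in the glandular tissues minus that in the epithelial ones passed for no member (0 of 6, edgeR, with 1 at an unadjusted p under 0.05, against 0.716% of all genes called and 13.1% at that unadjusted limit), the farthest from 0 being Mtk at −2.08 ± 0.50 (edgeR, adjusted p = 1). No other tool was run on these contrasts. The call of Mtk in the bursa and not in other tissues therefore does not show a difference between them.

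The make-up of the 6 genes differed between tissues and times. Scaled to exonic length (CPM per kb), Def made up 86.9%, 83.9% and 87.4% of the 6 genes' summed level in the oviduct before mating, at 6 h and at 24 h. In the seminal receptacle its part was 34.3%, 66.2% and 81.6%. In the bursa Def had 41.5%, 32.9% and 64.9%, Listericin 16.2%, 36.5% and 22.2%, and Mtk 15.4%, 22.8% and 5.24%. In the spermathecae Listericin had 2.17%, 29.3% and 27.8%. In the fat body most of the sum was Mtk (35.8%, 39.1% and 46.0%), DptB (33.7%, 44.4% and 32.7%) and DptA (26.5%, 13.5% and 18.7%). Summed over the 6 genes, the bursa held 456 CPM per kb before mating, 3418 at 6 h and 3626 at 24 h, the oviduct 2669, 10569.7 and 20388, and the fat body 5488, 7614 and 6827.

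Among 25 other antimicrobial peptide and related genes, 17 could be tested in the bursa, of which 3 were higher at 6 h: the attacins AttA (5.74 ± 0.47 in log2; edgeR, Bonferroni-adjusted p = 0.000292) and AttB (5.24 ± 0.43; edgeR, adjusted p = 0.000363) and the cecropin CecA1 (5.56 ± 0.59; edgeR, adjusted p = 0.00502). AttA and AttB are near-identical copies, so short reads may be divided between them and their separate values are uncertain. The median over the 17 was 2.29, against −0.02 over all genes. AttA was still higher at 24 h (4.03 ± 0.43; edgeR, adjusted p = 0.00599). None was called in the other 5 tissues, although 71 of the 105 gene-by-tissue tests of the list at 6 h were higher at an unadjusted p under 0.05, and 23 of 105 at 24 h. Over all genes these shares were 10.1% and 4.35%. The 24 h level was lower than the 6 h level in 45 of the 105 at that unadjusted limit, and higher in none, where 8.32% of all tests were lower.

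Few genes that control the peptides passed the test, but few genes of any kind did at this limit, as the shares given above show. At 6 h, 0 of 100 Imd pathway tests and 1 of 45 tests of its negative regulators were called higher. For the Toll pathway the count was 2 of 106 and for JAK/STAT 1 of 78. No test set these lists against all genes. None of 17 Imd pathway genes (receptors, adaptors, kinases and Relish) was called in any tissue at 6 h or 24 h in edgeR, where 12 of 100 tests were higher and 6 lower at 6 h, and 4 higher and 4 lower at 24 h, at an unadjusted p under 0.05. Over all genes 10.1% and 4.35% of tests were higher at that limit, near the Imd shares. The share lower was not computed. Of the negative regulators of Imd, PGRP-SC2, an amidase that degrades peptidoglycan, was higher in the spermathecae at 6 h (6.23 ± 0.32; edgeR, Bonferroni-adjusted p = 7.34e-07) and at 24 h (2.83 ± 0.27; edgeR, adjusted p = 0.00143), and lower at 24 h than at 6 h (−3.40 ± 0.27; edgeR, adjusted p = 0.000177). Of the Toll pathway genes, the recognition proteins PGRP-SA (3.89 ± 0.22; edgeR, adjusted p = 4.96e-06) and PGRP-SD (4.37 ± 0.35; edgeR, adjusted p = 0.000235) were higher in the bursa at 6 h. PGRP-SD was also higher there at 24 h (3.55 ± 0.34; edgeR, adjusted p = 0.00155), and PGRP-SA was lower at 24 h than at 6 h (−2.44 ± 0.21; edgeR, adjusted p = 0.000472). Of the JAK/STAT genes, Socs36E, a target and inhibitor of that pathway, was higher in the bursa at 6 h (2.20 ± 0.21; edgeR, adjusted p = 0.00148). Of the muscle genes, TpnC73F, a troponin C gene, was higher in the spermathecae at 24 h (1.92 ± 0.17; edgeR, adjusted p = 0.000691). No hemocyte, gut, ovary, testis, male accessory gland or fat body marker was called in any tissue at either time in edgeR's quasi-likelihood test. At 6 h and an unadjusted p under 0.05, fat body markers were lower in 13 of 66 tests and higher in 2. Male markers were higher in 6 of 14 and lower in 1, and hemocyte markers lower in 11 of 53 and higher in 0. Only 2 or 3 of the 18 male genes exceeded 2 CPM in a group. Est-6 and PebIII did so in unmated tissues and whole females too, so these tests do not separate male from female transcript. Of all tests over the 6 tissues 10.1% were higher at that limit, and the share lower was not computed.

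Over the means of the 19 groups, which share libraries within tissues and the same runs, the 6 genes formed sets by likeness of pattern (Pearson r of log2(CPM + 0.5), a description with no test). DptA and DptB had r = 0.948, DptB and Mtk 0.931, DptA and Mtk 0.828, and Listericin and Def 0.847, whereas Listericin had r = −0.34 with DptB and Def −0.21 with DptB. Among 9545 genes the 3 most like Listericin were CG42561 (0.874), the matrix metalloproteinase Mmp1 (0.865) and the zinc transporter Zip89B (0.856). For Def they were CG43277 (0.953), CG18367 (0.943) and CG15394 (0.929). DptA was nearest to CG45045 (0.962) and to the stress-induced TotA (0.958) and TotC (0.954), and DptB to the bomanin genes BomS1 (0.993) and BomS2 (0.981), with CG43920 between them (0.988). Mtk was nearest to BomS5 (0.958), BomS1 (0.944) and IM33 (0.937). Dro was nearest to IM18 (0.853), the ferritin subunit Fer1HCH (0.820) and the metallothionein MtnA (0.814). When each tissue's mean was taken out over the 64 libraries, Listericin had r = 0.384 with DptB and 0.620 with Mtk (−0.26 over group means), and Def 0.403 with DptB. Listericin then became the gene most like Def (r = 0.795) and AttC the one most like DptB (r = 0.921), while the muscle gene Mlp60A was the one most like Listericin (r = 0.865).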

How the data were processed

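The authors prepared RNA from pooled tissue and had 50 base single-end reads sequenced on a BGISEQ instrument. They aligned the reads with HISAT2 2.1.0 to FlyBase release 6.21 and used StringTie to obtain counts per gene. The paper states that samples were analyzed in 2 batches, which are called runs here. The deposited table has the authors' raw counts for 17752 genes and 64 libraries, whole numbers that are not normalized although its name says CPM. Of its columns, 14 in 6 groups name a group but no single sample and were used as replicates without a number. Genes were named and placed with the annotation of BDGP6.54.

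CPM and all tests were computed here from those counts. edgeR 4.0.16 (R 4.3.3) fitted a quasi-likelihood model per tissue with TMM factors on genes that exceeded 2 CPM in 2 or more libraries of 1 group, and p-values were Bonferroni-adjusted over all genes tested, with the study's limits (0.01 between times; 0.001 and a log2 fold change of 2 against whole females). The study's methods name edgeR but not which of its tests. Unmated tissues were fitted together, and tissue-by-time contrasts over the 62 tissue libraries. SE is the log2 fold change over the square root of F. DESeq2 1.42.0, the likelihood ratio test, other scalings, no filter, run terms, a fit of all 64 libraries and leaving out each library were alternatives. Scripts were tested on simulated data. Named genes were the 6 members, the 3 genes most like each over the 19 group means, and at most 3 called members of each list. The members and lists were chosen with earlier results of these data known. No 2 libraries of a group agreed within sampling noise: over 81 pairs the mean squared difference was at least 17.1 times the sampling variance. Replicates were separate pools, so p-values measure the spread between pools. List symbols without a match numbered 2.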

Additional observations from a re-analysis of the deposited data

Results flagged for a closer look

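In groups of 4 libraries, the gap between an extreme library and its nearest neighbour was compared with the group's range by Dixon's limit. Of 60 gene-by-group sets, 4 exceeded it, and chance alone flags about 1 in 20. In the bursa at 6 h 1 run 2 library had 87.28 CPM of DptA, with the others at 18.4 to 26.3 CPM, and the same library had 141.8 CPM of DptB, with the others at 29.6 to 46.9 CPM. It also had the highest summed level of fat body genes in that group, 11364 CPM against 3314 to 5199 CPM. The part of fat body in these values was not tested. In the bursa at 24 h 1 run 1 library had 73.54 CPM of DptB, with the others at 27.7 to 33.2 CPM. In the unmated fat body 1 run 1 library had 2.012 CPM of Def, with the others at 3.37 to 3.53 CPM.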

How the results depend on the processing

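Of 36 pairs, 3 were called higher at 6 h by the quasi-likelihood test, 12 by edgeR's likelihood ratio test, 12 by DESeq2, 8 with the run as a covariate, 8 in 1 fit of all 64 libraries and 5 with Benjamini-Hochberg adjustment. At 24 h the 3 calls became 11, 13, 9 and 9 under the first 4 of these, and 5 with total counts only. With the run as a covariate the counts at both times include Listericin in the fat body, which passed the filter only through its mated groups. For 24 h below 6 h the count of 0 became 1 under the likelihood ratio test, DESeq2 and Benjamini-Hochberg adjustment. Against whole females the 3 calls became 19 with DESeq2, 12 with Benjamini-Hochberg adjustment, 7 in 1 fit of the unmated libraries, 5 without a filter and 1 with total counts only. Against the other tissues the 11 calls became 20 with Benjamini-Hochberg adjustment and 7 in run 2 alone. The tissue-by-time count of 0 became 1 at 6 h and, for glandular against epithelial tissues, 1 with Benjamini-Hochberg adjustment, and at 24 h 1 with total counts, with the run as a covariate and in run 2 alone, in each case Def in the fat body. Leaving out 1 library gave 2 to 3 calls at 6 h, 3 to 4 at 24 h, 0 to 4 against whole females and 8 to 12 between tissues, and no call in the remaining comparisons. No share of all genes was computed for Benjamini-Hochberg adjustment, the joint fits, no filter, leaving out a library, or DESeq2 against whole females. Counts under those settings therefore do not set the members against other genes. Of 1434 alternative values of 62 fold changes none reversed, 87 lost and 108 gained the threshold. The alternatives did not include run 1 alone. The absence of reversals therefore does not cover the differences in direction between the runs given above. TMM scaling raised the members' median log2 fold change over total counts by 0.45 in the bursa and 0.30 in the oviduct at 6 h, and by 0.56 in the fat body at 24 h.

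CPM scaled by TMM, fitted over all 64 libraries, moved 43 of 114 group means by more than 1 SD. The shares of the fat body level and the overlaps between groups on that scale were computed after seeing the data.

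Deviations from the group means of same-numbered libraries had a median r of 0.24 (18 of 31 pairs above 0.1), those of other numbers in the same run 0.17 (18 of 30) and those in different runs −0.20 (4 of 60). As not every same-numbered pair exceeded 0.1, and libraries of a run were alike with or without a shared number, the numbers were not taken as pairs. Over the numbered libraries a replicate block gave 3, 3 and 0 calls for the 3 time comparisons, against 3, 3 and 0 without it.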
